A study of Mus musculus with 8 samples.

Results

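Positional homeobox and Pax genes encode transcription factors that give a developing neuron its address along the body and head. They were taken here as every probeset with 1 gene symbol in the Hox, Nkx, Lhx, Dlx, Pax, Irx, sine oculis (Six3 and its relatives), Meis, Gbx, Barhl, Onecut or Pou families, except Pou3f2. The rule used names alone and no measured value. It gave 111 probesets for 110 genes, out of 35512 probesets and 19938 genes in the series. The genes were 38 Hox, 13 Nkx, 12 Pou, 9 Pax, 8 Lhx, 7 Dlx, 7 Irx, 6 sine oculis, 3 Meis, 3 Onecut, 2 Barhl and 2 Gbx genes. Of these, 105 code for protein. The other 5 are Dlx1as, an antisense RNA, the long noncoding RNAs Six3os1, Hoxd3os1 and Irx3os, and the pseudogene Pou5f1-rs4. Pou2af1 entered by its name, although it encodes a coactivator of Pou proteins and no homeodomain.

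The homeodomain binds DNA around a short core of A and T bases, and Pax proteins carry a paired domain as well. Hox genes are used in order along the hindbrain and spinal cord and are normally silent in the midbrain and forebrain. Dlx genes build the GABAergic neurons of the forebrain, LIM homeobox (Lhx) genes mark neuron types of many regions, and Meis proteins are DNA-binding partners of Hox and Pbx proteins. Midbrain dopaminergic (mDA) neurons arise in the ventral midbrain under En1, En2, Lmx1b, Foxa2, Nr4a2 and Pitx3. None of those genes belongs to the families counted here.

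The arrays ask which mDA neurons depend on the homeobox gene Pitx3. The 8 Affymetrix Mouse Gene 1.0 ST arrays form 4 groups of 2, which are SNc KO (lateral ventral midbrain, substantia nigra pars compacta, Pitx3-/-), SNc WT (the same region, Pitx3+/+), VTA KO (medial ventral midbrain, ventral tegmental area, Pitx3-/-) and VTA WT (that region, Pitx3+/+). All pups were C57Bl/6, aged P1 to P4, and carried TH-EGFP in the heterozygous state (+/-), which labels catecholaminergic cells in controls and mutants alike. Live EGFP+ cells were sorted, stored batches were pooled, and the RNA was amplified before hybridization. By the study's account the Pitx3-dependent neurons of SNc are already gone at birth in the mutant while those of VTA are still present, so SNc KO and SNc WT were sorted from different sets of cells. No source says whether the 2 arrays of a group came from separate pups, and the tests therefore measure the spread between arrays, which may be technical. In such bulk samples fewer cells of a type and less RNA per cell cannot be told apart.

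Values are log2 signals as deposited, and a linear signal of 60 (log2 5.91) is the minimum that the study's methods set. It is not a test of expression. The 12 measured genes of the mDA identity list, Th and Slc6a3 among them, were at or over this minimum in all 4 groups. The Pitx3 probeset read 7.87 and 7.94 in SNc KO, 7.72 and 7.63 in SNc WT, 8.08 and 7.92 in VTA KO, and 8.10 and 7.84 in VTA WT. It was thus no lower in the arrays labelled KO, and since the deleted and the probed parts of the gene are not given, it does not check the genotype. Array medians lay between 6.11 and 6.13 on the SNc arrays and between 6.17 and 6.24 on the VTA arrays, so small differences between SNc and VTA depend on the scaling. Between the arrays of a group the SD over all probesets ran from 0.272 (VTA WT) to 0.396 (VTA KO), and over the positional genes from 0.127 (VTA WT) to 0.175 (SNc KO).

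Upstream sequences of 3 genes show where the homeodomain core stands before genes whose signals are described below. They are the 250 bases before the annotated start of Lhx9, Pax6 (the first of its starts) and Dlx1, taken from RefSeq in the GRCm38.p6 build and written 5′ to 3′ on the strand of the gene. Capitals mark the core ATTA or its reverse complement TAAT. The windows are chr1:138842445-138842694 on the minus strand for Lhx9, chr2:105668646-105668895 on the plus strand for Pax6 and chr2:71529195-71529444 on the plus strand for Dlx1.
Lhx9: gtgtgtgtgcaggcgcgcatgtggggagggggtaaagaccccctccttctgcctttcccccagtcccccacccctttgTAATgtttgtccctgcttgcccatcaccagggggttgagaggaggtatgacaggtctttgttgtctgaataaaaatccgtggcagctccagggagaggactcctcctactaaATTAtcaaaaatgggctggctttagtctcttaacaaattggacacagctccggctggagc
Pax6: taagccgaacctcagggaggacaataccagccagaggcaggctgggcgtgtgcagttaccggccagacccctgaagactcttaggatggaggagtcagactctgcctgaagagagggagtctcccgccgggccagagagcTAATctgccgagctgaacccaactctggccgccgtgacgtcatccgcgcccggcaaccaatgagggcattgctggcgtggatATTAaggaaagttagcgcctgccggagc
Dlx1: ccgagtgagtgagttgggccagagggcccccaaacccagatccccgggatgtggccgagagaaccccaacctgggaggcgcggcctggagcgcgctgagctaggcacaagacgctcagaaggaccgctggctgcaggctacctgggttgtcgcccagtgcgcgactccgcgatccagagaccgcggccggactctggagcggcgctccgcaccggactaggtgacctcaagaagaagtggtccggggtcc
Lhx9 and Pax6 held 2 cores each and Dlx1 held 0. The Dlx1 window held 22 CG dinucleotides, the Pax6 window 15 and the Lhx9 window 4. Promoter sequences were found for 74 of the 110 genes, with 86 starts. ATTA on either strand stood in 51.2% of these 86 windows and in 54.9% of the 32851 windows of all genes. The palindrome TAATTA, which is 2 overlapping cores and is bound by many homeodomain proteins, stood in 2.33% of the windows of positional genes and in 4.84% of all windows. TAATCC, the site of bicoid-type factors such as the Pitx proteins, stood in 2.33% and 6.25%. For TAATTA and TAATCC alike, 2.33% is 2 of the 86 windows, and the shares were not tested. The median number of CG dinucleotides was 13.5 in the windows of positional genes and 6 over all windows. A match is a string of letters and was not examined as a binding site.

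Most positional genes gave little signal in these sorts. Of the 110 genes, 57 were under the minimum in every group, 35 were at or over it in all 4 groups and 31 on all 8 arrays. By group, 43 genes reached it in SNc KO, 38 in SNc WT, 47 in VTA KO and 48 in VTA WT. These are 39.1%, 34.5%, 42.7% and 43.6% of the positional genes, against 59.9%, 59.3%, 62.4% and 63.6% of all genes. Most of those that reached it did so narrowly. With a minimum of 100, 13 genes were left in SNc KO, 9 in SNc WT, 5 in VTA KO and 9 in VTA WT. The 13 in SNc KO were Lhx9, Lhx2, Pax6, Dlx5, Dlx1as, Meis1, Meis2, Meis3, Nkx2-2, Nkx6-2, Barhl2, Hoxa4 and Hoxb1. The 5 in VTA KO were Meis2, Meis3, Nkx6-2, Pou3f1 and Hoxb1.

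**Figure D1:**
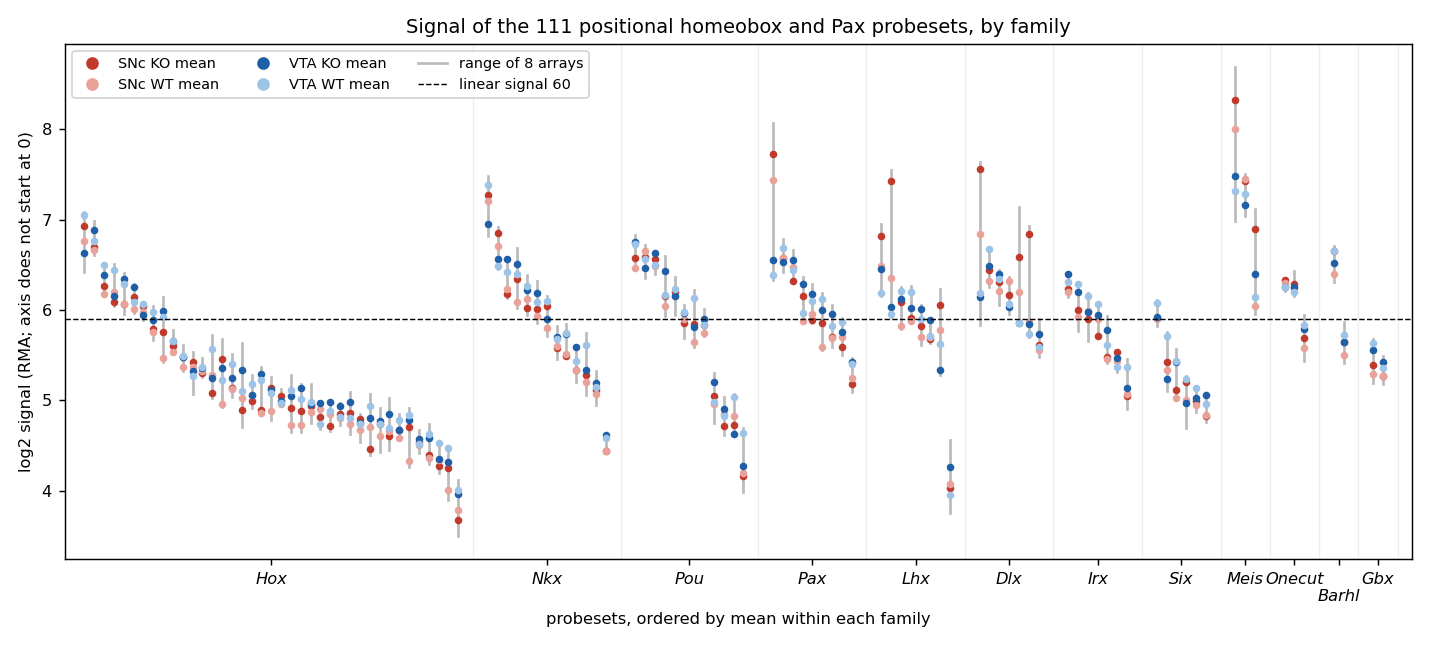
Log2 signal of the 111 probesets, ordered within each family by the mean of 8 arrays. Dots are group means of 2 arrays, grey lines the range of the 8 arrays and the dashed line the linear signal of 60. Most Hox probesets lie under the line with the groups close together, while Lhx9, Dlx5, Dlx1as, Dlx1, Pax6, Meis1 and Meis2 have the SNc KO mean above the other group means.

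Hox genes, which set identity in the hindbrain and spinal cord, were mostly under the minimum. Of 38 Hox genes (37 coding), 29 did not reach it in any group. The 9 that did were Hoxa4, Hoxa6, Hoxa9, Hoxb1, Hoxb3, Hoxb7, Hoxb9, Hoxc9 and Hoxd10. Their number was 7 in SNc KO, 7 in SNc WT, 8 in VTA KO and 9 in VTA WT. Hoxb1, the gene of the fourth hindbrain segment, read 6.72 and 6.67 in SNc KO, 6.72 and 6.61 in SNc WT, 6.98 and 6.78 in VTA KO, and 6.70 and 6.84 in VTA WT. Both VTA KO arrays were above all 4 SNc arrays, and the other pairs of groups overlapped. Hoxa5, of the same cluster as Hoxa4, had group means from 3.68 to 4.00. The summed linear signal of the 37 coding Hox genes lay between 1522 and 1525 in SNc KO, 1455 and 1467 in SNc WT, 1534 and 1716 in VTA KO, and 1651 and 1671 in VTA WT.

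Markers of other neuron types set the frame for the positional genes. Tph2 and Slc6a4 of serotonergic neurons and Dbh, Slc6a2 and Phox2a of noradrenergic neurons were under the minimum in every group. Chat and Slc5a7, the acetylcholine enzyme and choline transporter, were too, as was the motor neuron gene Mnx1. Pou4f1, a gene of the red nucleus, the habenula and sensory neurons, had group means of 4.16 in SNc KO, 4.20 in SNc WT, 4.27 in VTA KO and 4.64 in VTA WT, and Pou4f3 was under the minimum too. Nkx2-1, which marks hypothalamus and the medial forebrain, had group means of 5.28, 5.21, 5.34 and 5.62 in the same order. Of the hypothalamic list, Otp, Hmx2 and Sim1 reached the minimum and 4 of 7 measured genes did not, and of the telencephalic list Emx1 alone did, out of 3. Of the GABAergic list, Gad1, Gad2, Slc32a1, Gata2 and Tal1 were over the minimum in all 4 groups, and Gata3, Tal2, Sox14 and Helt, 4 of 9 measured genes, in none. Of the glutamatergic list, Slc17a6 was over it in all 4 groups and Slc17a8 in SNc KO and VTA WT, and Slc17a7, Tbr1 and Neurod1, 3 of 5, were under it everywhere.

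SNc KO was set against SNc WT first, a comparison that asks which genes belong to the SNc neurons that do or do not need Pitx3. Lhx9, Dlx1as, Meis1 and Dlx5 gave the widest differences, each higher in SNc KO, and none passed adjustment over the 22112 probesets tested. Of the 53 positional probesets tested, 0 had a limma adjusted p under 0.05, while 0.149% of all tested probesets did. At an unadjusted p under 0.05 there were 5 of 53 (Lhx9, Dlx1as, Meis1, Dlx5 and Lhx2), all higher in SNc KO, or 9.43%, against 4.82% of all tested probesets in that direction, and 0 were lower, against 3.8%. The 5 became 8 without SNc KO replicate 2, 3 without SNc WT replicate 1 or either VTA WT array, and 3 under quantile normalization. The median difference of the 53 was 0.08, beside 0.01 over all tested probesets. The groups did not overlap, with SNc KO higher, for 21 of the 53 (39.6%, against 24% of all), and with SNc KO lower for 3 (5.66%, against 20%).

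Lhx9, a LIM homeobox gene of dorsal diencephalic and midbrain neurons, read 7.56 and 7.30 in SNc KO and 6.24 and 6.47 in SNc WT. It read 6.03 and 6.05 in VTA KO and 5.93 and 6.00 in VTA WT. Both SNc KO arrays were above all 6 other arrays, and both SNc WT arrays were above all 4 VTA arrays. The difference between SNc KO and SNc WT was 1.07 on the log2 scale (SE 0.135, limma adjusted p = 0.0727), a fold of 2.10. Lhx2, the close relative of Lhx9 that acts in eye and cortex, read 6.69 and 6.95 in SNc KO, 6.45 and 6.54 in SNc WT, 6.41 and 6.50 in VTA KO, and 6.22 and 6.15 in VTA WT. It too was highest on the SNc KO arrays, by 0.33 over SNc WT (SE 0.126, limma adjusted p = 0.544).

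Dlx1as is transcribed from the strand opposite Dlx1, and the annotated ranges of the pair overlap. How the amplified RNA kept strand is not given, so the pair may share signal. Dlx1as read 6.76 and 6.94 in SNc KO, 6.04 and 5.71 in SNc WT, 5.99 and 5.70 in VTA KO, and 5.70 and 5.77 in VTA WT. The SNc KO arrays stood alone well over the minimum, at 0.97 over SNc WT (SE 0.162, limma adjusted p = 0.141). Dlx1 itself read 7.14 and 6.03 in SNc KO and 6.21 and 6.19 in SNc WT. Its value in SNc KO thus rested on replicate 1, and the difference of 0.39 had an SE of 0.323. On the VTA arrays Dlx1 stayed under the minimum, at 5.88 and 5.84 in VTA KO and 5.86 and 5.85 in VTA WT.

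Dlx5, a partner of Dlx6 in forebrain GABAergic neurons, read 7.64 and 7.48 in SNc KO, 6.47 and 7.22 in SNc WT, 6.45 and 5.84 in VTA KO, and 6.24 and 6.14 in VTA WT. Both SNc KO arrays were above all others, but the SNc WT arrays lay far apart, and the difference of 0.72 had an SE of 0.293 (limma adjusted p = 0.573). Dlx6, its neighbour on chromosome 6, did not show that order. It read 6.37 and 5.96 in SNc KO, 6.31 and 6.34 in SNc WT, 6.04 and 6.04 in VTA KO, and 5.97 and 6.16 in VTA WT. Dlx2, the other founder gene of that programme, was under the minimum in every group, with means of 5.62 in SNc KO, 5.56 in SNc WT, 5.74 in VTA KO and 5.59 in VTA WT. Lhx8 and Nkx2-1, which act with Lhx6 in the medial forebrain, were under it as well. Of the 7 genes of the forebrain GABAergic list, 4 were tested (Dlx1, Dlx5, Dlx6 and Lhx6) and 0 passed the test in SNc KO against SNc WT, with a median difference of 0.21.

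Meis1, a partner of Hox and Pbx proteins, read 7.12 and 6.68 in SNc KO, 6.14 and 5.96 in SNc WT, 6.63 and 6.16 in VTA KO, and 6.08 and 6.21 in VTA WT. SNc KO was 0.85 over SNc WT (SE 0.213, limma adjusted p = 0.318). Meis2, its relative, read 8.69 and 7.97 in SNc KO and 7.96 and 8.07 in SNc WT, so that those groups overlapped. Meis3 read 7.50 and 7.37 in SNc KO and 7.39 and 7.51 in SNc WT and overlapped as well. Of the Hox and LIM partner genes outside the families counted, 12 of 13 measured cofactors were tested (Pbx, Pknox, Tgif, Ldb and Lmo genes) and 0 passed adjustment in any comparison. The widest difference among them was in Lmo3, a LIM-only gene, which read 9.08 and 8.65 in SNc KO and 10.53 and 10.53 in SNc WT (difference -1.67, limma adjusted p = 0.0727).

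**Figure D2:**
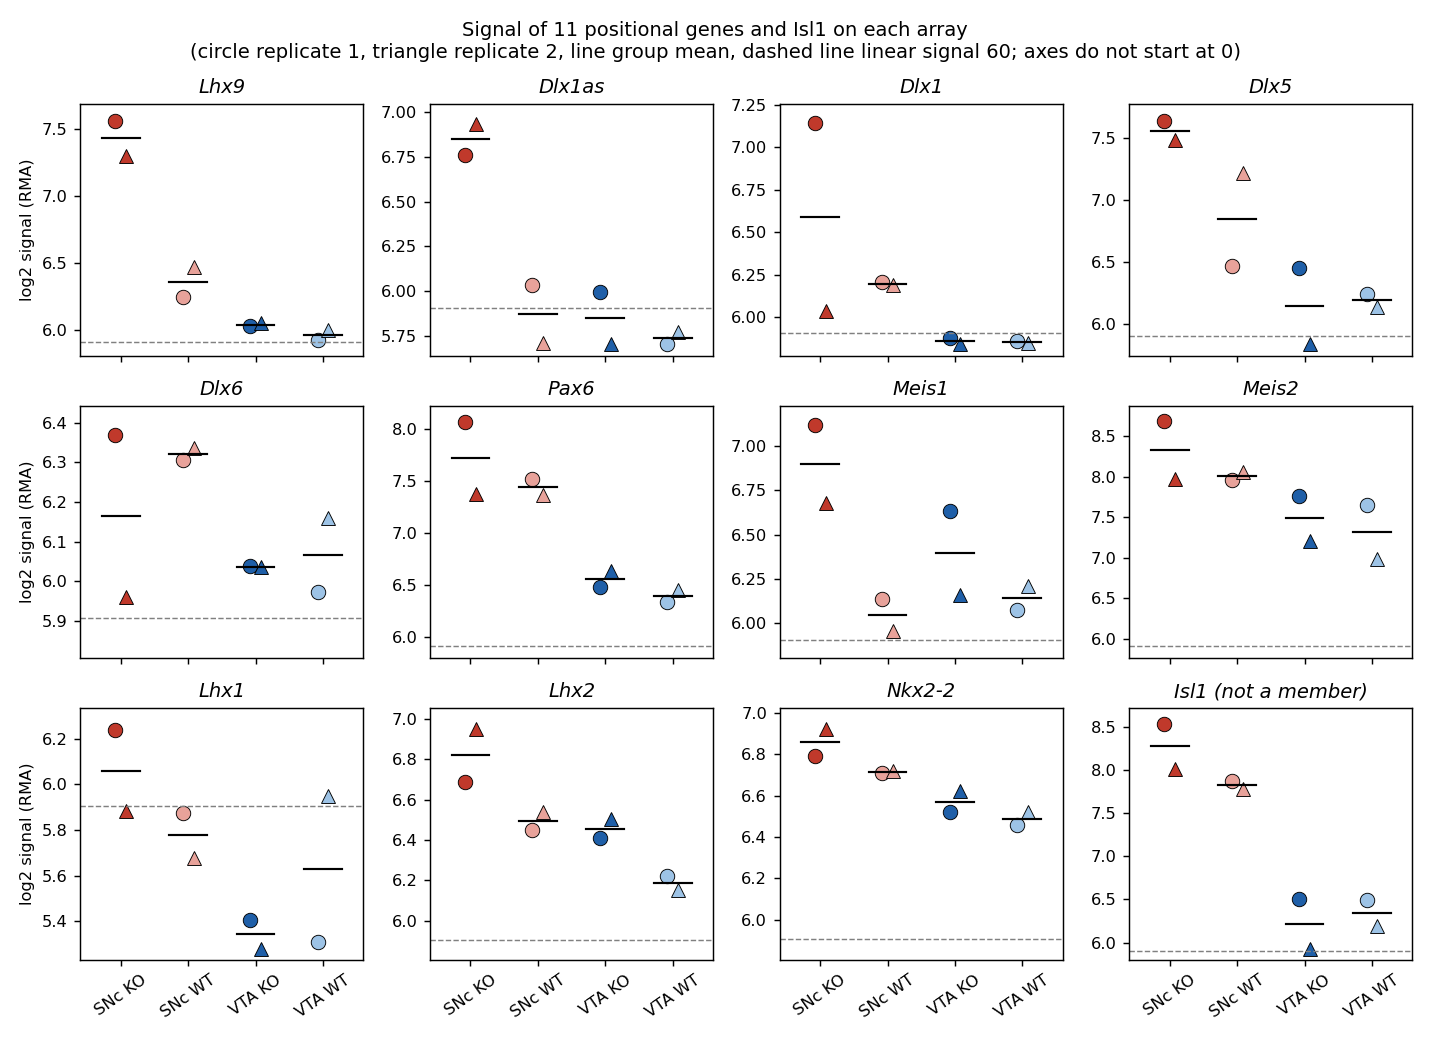
Log2 signal of 11 positional genes and Isl1 on each array, with a vertical axis of its own for each gene that does not start at 0. Circles are replicate 1, triangles replicate 2, lines group means and the dashed line the linear signal of 60. Both SNc KO arrays of Lhx9, Dlx1as, Dlx5, Meis1, Lhx2 and Nkx2-2 lie above all other arrays, whereas in Dlx1 1 SNc KO array stands apart from the other.

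Over the whole group, 6 of 53 tested positional probesets had both SNc KO arrays above the 6 other arrays, namely Lhx9, Dlx1as, Meis1, Dlx5, Lhx2 and Nkx2-2. That is 11.3%, against 7.8% of all tested probesets. Pax4 and Irx6 had both SNc KO arrays below all others (3.77%, against 5.24%). Nkx2-2, a gene of the most ventral neural tube and of oligodendrocyte formation, read 6.79 and 6.92 in SNc KO, 6.71 and 6.72 in SNc WT, 6.52 and 6.62 in VTA KO, and 6.46 and 6.52 in VTA WT, a narrow spread. At the thresholds of the study (unadjusted p of at most 0.05, fold of at least 1.5, signal of at least 60), with limma's p, Lhx9, Dlx1as, Meis1 and Dlx5 were higher in SNc KO than in SNc WT and 0 members were lower. The 4 are 7.55% of the 53, against 1.84% of all tested probesets, while 1.76% of all were lower. Dlx1as passed the signal filter through SNc KO alone, the group where it is high, so the filter favoured a difference in that direction. Of the 53 tested, 6 passed through 1 group alone, Dlx1as and Lhx1 through SNc KO, Lhx4 and Pax8 through VTA KO, and Hoxa9 and Pou2af1 through VTA WT, so that counts over the 53 describe them and are no support for a direction.

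Markers of other cells moved along with that comparison. The summed linear signal of 8 pericyte and smooth muscle genes was 2331 and 2078 in SNc KO, 758 and 655 in SNc WT, 2724 and 470 in VTA KO, and 2835 and 2083 in VTA WT. At an unadjusted p under 0.05, 4 of these 8 were higher in SNc KO than in SNc WT, and 0 passed adjustment. The 6 tested genes of astrocytes and radial glia had a median difference of 0.17 in the same comparison, and the 10 ependymal genes one of 0.07. Of the oligodendrocyte list, Olig2 and Mbp were higher at an unadjusted p under 0.05 and 0 of 6 tested passed adjustment, with a summed signal of 497 and 517 in SNc KO and 431 and 437 in SNc WT. Of the list for microglia and macrophages, Mrc1, a macrophage receptor, fell in SNc KO, with 5.43 and 5.19 in SNc KO and 6.59 and 6.81 in SNc WT (difference -1.40, limma adjusted p = 0.038). Mrc1 passed the signal filter through SNc WT alone, the group where it is high, so the filter favoured that direction. The summed signal of that list was 388 and 353 in SNc KO and 418 and 447 in SNc WT, and its Aif1, Csf1r and C1qa, 3 of 6, were under the minimum in every group. Slc32a1, the vesicular GABA transporter, read 9.08 and 9.23 in SNc KO and 8.16 and 8.28 in SNc WT (difference 0.94, limma adjusted p = 0.0727). It was higher in VTA KO too, at 8.99 and 8.80 against 8.18 and 8.14 in VTA WT (difference 0.73, limma adjusted p = 0.185). Slc17a6, a vesicular glutamate transporter, read 10.04 and 9.96 in SNc KO and 9.06 and 8.78 in SNc WT (difference 1.08, limma adjusted p = 0.0811). On the VTA arrays it lay near the SNc KO level, at 10.12 and 9.94 in VTA KO and 9.68 and 9.90 in VTA WT. Otx2, a homeobox gene of forebrain and midbrain that is no member of these families, rose in SNc KO by 2.13 (limma adjusted p = 0.0375), with 8.03 and 8.10 in SNc KO and 6.25 and 5.62 in SNc WT. On the VTA arrays Otx2, which the study used as a VTA marker, read 8.41 and 8.65 in VTA KO and 7.76 and 7.79 in VTA WT. SNc WT was thus the low group, also against VTA WT (difference -1.84, limma adjusted p = 0.0277). On VTA KO replicate 1, where the pericyte sum was above that of the SNc KO arrays, Lhx9 read 6.03, Dlx1as 5.99, Dlx5 6.45 and Meis1 6.63, and on VTA KO replicate 2, where the sum was lowest, they read 6.05, 5.70, 5.84 and 6.16. The part of these cell types in the positional genes was not tested.

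**Figure D3:**
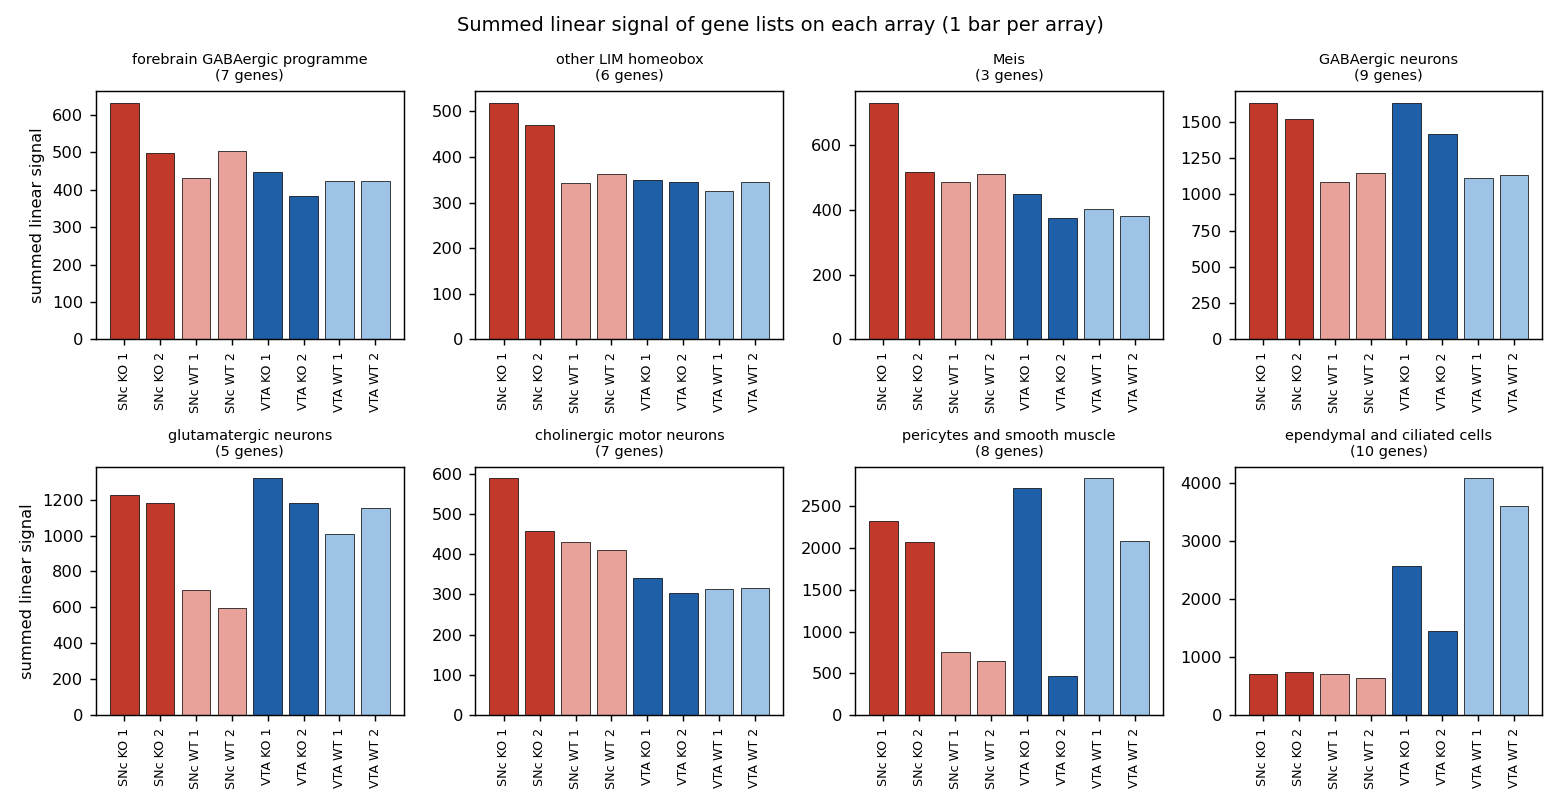
Summed linear signal of 8 gene lists on each array, 1 bar per array, with axes that start at 0. Other LIM homeobox and Meis genes have their highest sum on SNc KO replicate 1, while pericyte and smooth muscle genes are high on 5 arrays, SNc KO, VTA WT and VTA KO replicate 1, and ependymal genes are high on the VTA arrays.

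In VTA the mutant still holds its Pitx3-dependent neurons at birth, and VTA KO against VTA WT asks which genes depend on the factor there. Of the 53 positional probesets tested, 0 passed adjustment, beside 0.00904% of all tested probesets. At an unadjusted p under 0.05, 3 were lower in VTA KO (5.66%, against 5.51% of all) and 0 were higher (against 4.73%). At the thresholds of the study 0 were higher and 0 lower, while 1.92% and 2.42% of all tested probesets were. The median difference was -0.0047 and turned to 0.02 under quantile normalization or median subtraction, beside -0.02 over all tested probesets. VTA KO was higher without overlap for 11 of the 53 (20.8%, against 17.5%) and lower for 14 (26.4%, against 20.7%). That balance turned with the scaling, to 19 higher and 13 lower under quantile normalization and to 19 higher and 12 lower under median subtraction.

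The 3 with an unadjusted p under 0.05 were Nkx6-2, Hoxa4 and Pou2af1, and they became 5 without VTA KO replicate 1 and 1 without VTA WT replicate 2. Quantile normalization gave 1 higher and 3 lower. Nkx6-2, which patterns the ventral neural tube and acts in myelinating glia, read 6.82 and 7.10 in VTA KO and 7.48 and 7.28 in VTA WT (difference -0.42, SE 0.138, limma adjusted p = 0.376). It read 7.33 and 7.23 in SNc KO and 7.23 and 7.19 in SNc WT, where the genotypes lay close. Hoxa4, a gene of the caudal hindbrain, read 6.83 and 6.42 in VTA KO and 7.09 and 7.02 in VTA WT (difference -0.43, SE 0.150, limma adjusted p = 0.410). Pou2af1, known from B cells, was lower in VTA KO by a difference of -0.32 (SE 0.130, limma adjusted p = 0.477), and it passed the signal filter through VTA WT alone. On the same VTA arrays the ependymal sum was 2576 and 1445 in VTA KO and 4078 and 3599 in VTA WT, and the 10 ependymal genes had a median difference of -1.004. The part of these cells in the 3 genes was not tested. Lhx9, Dlx1as, Dlx5 and Meis1, the widest differences in SNc, had differences of 0.08, 0.11, -0.05 and 0.25 in VTA, with limma adjusted p-values of 0.884, 0.847, 0.972 and 0.738.

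**Figure D4:**
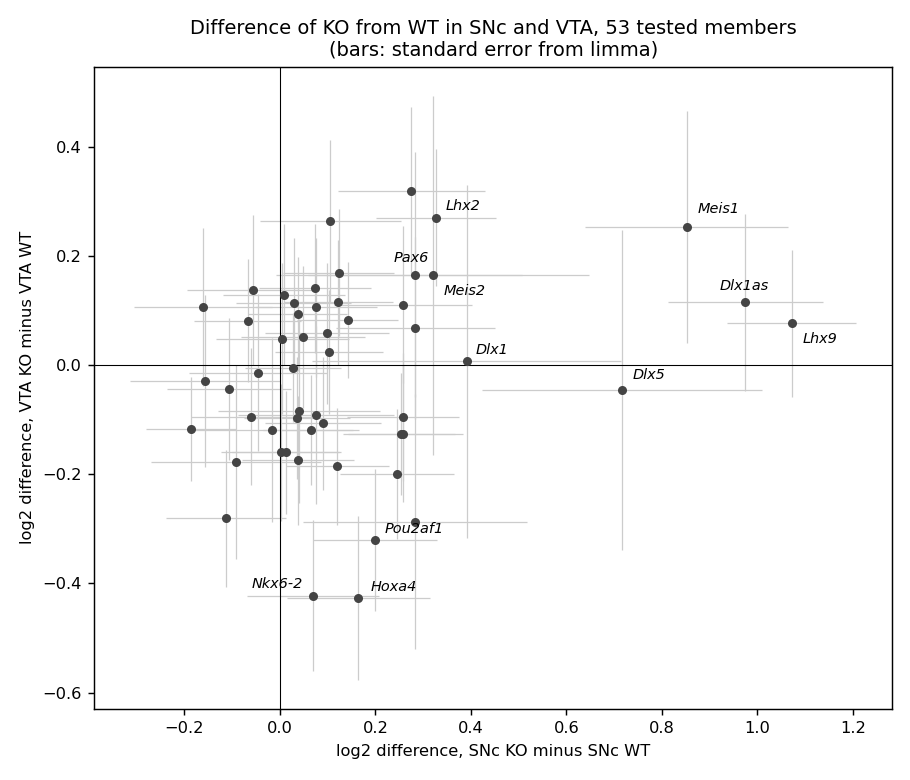
Log2 difference of SNc KO from SNc WT (horizontal axis) and of VTA KO from VTA WT (vertical axis) for the 53 tested probesets, with limma standard errors as bars. Lhx9, Dlx1as, Meis1 and Dlx5 lie far to the right at 0.72 to 1.07 in SNc and at -0.05 to 0.25 in VTA, and Nkx6-2 and Hoxa4 lie lowest in VTA.

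The SNc effect (SNc KO minus SNc WT) was tested against the VTA effect (VTA KO minus VTA WT), on arrays that the separate comparisons also use. By the study's account the Pitx3-dependent neurons are gone from SNc KO and still present in VTA KO. The test therefore cannot tell whether Pitx3 loss acts differently in SNc and in VTA. None of the 53 passed adjustment in limma, and 0% of all tested probesets did. At an unadjusted p under 0.05, 7 did (13.2%, against 5.53% of all in that direction, and 0 against 4.36% in the other), namely Lhx9, Dlx1as, Hoxa4, Pou2af1, Nkx6-2, Nkx2-4 and Barhl2, each with the SNc effect above the VTA effect. For Lhx9 the difference of effects was 0.995 (SE 0.191, limma adjusted p = 0.283), and for Dlx1as it was 0.86 (SE 0.230, limma adjusted p = 0.386). The values of both genes in SNc KO stood apart, as given above, whereas for Nkx6-2 both VTA KO arrays were below all others and for Hoxa4 both VTA WT arrays were above all others. The 7 became 3 without SNc KO replicate 1 or VTA WT replicate 2, and 4 without either SNc WT array or VTA WT replicate 1.

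Between regions, SNc KO was set against VTA KO, a comparison that shares arrays with those above. Lhx9 rose in SNc KO over VTA KO, by 1.39 on the log2 scale (SE 0.135, limma adjusted p = 0.0402), a fold of 2.62. It was the only one of the 53 tested to pass adjustment in any comparison (1.89%, against 0.149% of all tested probesets here). The call was lost when any 1 array other than VTA KO replicate 2 was left out, with adjusted p-values of 0.0962 to 0.175, and under 4 other settings. At an unadjusted p under 0.05, 8 were higher in SNc KO (15.1%, against 9.73% of all), namely Lhx9, Dlx5, Pax6, Dlx1as, Meis2, Lhx1, Lhx2 and Nkx2-2. Another 3, Nkx1-2, Pax4 and Irx6, were lower (5.66%, against 7.81%). The split was 9 higher and 1 lower under quantile normalization and 12 higher and 0 lower under median subtraction, and the 11 became 7 without SNc KO replicate 1 or either SNc WT array. At the thresholds of the study, Lhx9, Dlx5, Pax6, Dlx1as, Meis2 and Lhx1 were higher, or 11.3% against 3.47% of all, and 0 were lower (against 3.5%). Dlx1as and Lhx1 of these entered the fit through SNc KO alone. The groups did not overlap, with SNc KO higher, for 17 of the 53 (32.1%, against 26.8%), and with SNc KO lower for 17 (32.1%, against 21.8%).

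None of the other genes at those thresholds passed adjustment. Dlx5, with values given above, was 1.42 higher in SNc KO than in VTA KO (SE 0.293, limma adjusted p = 0.147). Dlx1as was 0.999 higher (SE 0.162, limma adjusted p = 0.114). Lhx1, a gene of cerebellar Purkinje cells and of GABAergic neurons in several regions, read 6.24 and 5.88 in SNc KO, 5.88 and 5.68 in SNc WT, 5.41 and 5.28 in VTA KO, and 5.31 and 5.95 in VTA WT. It crossed the minimum on 1 SNc KO array and on 1 VTA WT array alone. Lhx5, its close relative, was under the minimum everywhere, with group means between 3.95 and 4.26.

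Pax6, a gene of eye, forebrain and cerebellum that olfactory bulb dopaminergic neurons also express, followed region more than genotype. It read 8.07 and 7.38 in SNc KO, 7.52 and 7.37 in SNc WT, 6.48 and 6.63 in VTA KO, and 6.33 and 6.45 in VTA WT. All 4 SNc arrays were above all 4 VTA arrays. SNc KO was 1.17 over VTA KO (SE 0.224, limma adjusted p = 0.134) and SNc WT was 1.05 over VTA WT (SE 0.224, limma adjusted p = 0.107), folds of 2.25 and 2.07. Between the genotypes the SNc difference was 0.28 and the VTA difference 0.17, with the same SE of 0.224. Meis2 was likewise above VTA on all SNc arrays, with 7.77 and 7.21 in VTA KO and 7.66 and 6.99 in VTA WT. Its difference between SNc KO and VTA KO was 0.84 (SE 0.328, limma adjusted p = 0.266). SNc KO replicate 1 gave the highest value of the 8 arrays for Pax6, Meis2 and Dlx1, over 0.5 above replicate 2.

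Isl1, a LIM homeobox gene outside the families counted and known from motor and striatal neurons, had the same order by region. It read 8.53 and 8.01 in SNc KO, 7.86 and 7.78 in SNc WT, 6.50 and 5.93 in VTA KO, and 6.49 and 6.19 in VTA WT (SNc KO minus VTA KO 2.06, limma adjusted p = 0.0602). Gad1, a GABA-making enzyme, read 7.62 and 7.12 in SNc KO, 7.18 and 7.09 in SNc WT, 6.56 and 6.10 in VTA KO, and 6.18 and 6.19 in VTA WT. Gad2 did not follow that order, at 9.06 and 8.71 in SNc KO, 8.36 and 8.54 in SNc WT, 9.30 and 9.08 in VTA KO, and 8.60 and 8.67 in VTA WT. Chat, the defining enzyme of motor neurons, stayed between 4.46 and 5.01 on all arrays, and 5 of the 7 measured genes of the cholinergic list were under the minimum in every group. The exceptions were Isl1 and Slc18a3, the vesicular acetylcholine transporter. Slc18a3 read 5.86 and 5.55 in SNc KO, 5.77 and 5.60 in SNc WT, 6.58 and 6.53 in VTA KO, and 5.82 and 6.04 in VTA WT. It was highest on the VTA KO arrays, unlike Isl1, with a difference of -0.85 between SNc KO and VTA KO (limma adjusted p = 0.121) and of 0.62 between VTA KO and VTA WT (limma adjusted p = 0.27).

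SNc WT against VTA WT gave the regional contrast in normal pups. Of the 53 tested, 0 passed adjustment in limma, beside 0.439% of all tested probesets. At an unadjusted p under 0.05, Pax6, Lhx9 and Lhx2 were higher in SNc WT (5.66%, against 8.59%), and 8 were lower (15.1%, against 10.2%). The 8 were Pax1, Pou2af1, Hoxb7, Lhx3, Dlx4, Lhx6, Hoxb3 and Nkx2-4, with differences of -0.53 to -0.30. This split turned with the scaling, to 5 higher and 3 lower under quantile normalization and to 6 higher and 2 lower under median subtraction. Without SNc WT replicate 1 or 2 the 11 became 6 and 4, and without VTA WT replicate 1 or 2 they became 5 and 3. At the thresholds of the study Pax6 alone was higher (1.89%, against 2.66%) and 0 were lower (against 3.96%).

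Small shifts toward VTA in dim genes made up the rest. The median difference of the 53 was -0.13, beside 0.01 over all tested probesets. It was -0.03 under quantile normalization and -0.03 under median subtraction, which moved the median of all probesets to 0.12. SNc WT was lower without overlap for 28 of 53 (52.8%, against 28.7% of all), for 17 under quantile normalization and for 15 under median subtraction. It was higher without overlap for 9 (17%, against 29.6%), namely Lhx9, Lhx2, Pax6, Dlx1, Dlx5, Dlx6, Meis2, Nkx2-2 and Pou6f1, and for 12 and 13 under the other scalings. All 9 tested Hox probesets had negative differences, with a median of -0.23, and 7 and 6 of the 9 did under the other scalings. Pax1, which acts in the vertebral column and thymus, read 5.63 and 5.56 in SNc WT and 6.06 and 6.19 in VTA WT (difference -0.53, SE 0.126, limma adjusted p = 0.123). In SNc KO against VTA KO the median of the 53 was -0.07 as deposited and 0.01 under either other scaling.

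The same contrast moved with glial and ependymal markers. The ependymal sum was 715 and 649 in SNc WT against 4078 and 3599 in VTA WT, and 710 and 749 in SNc KO against 2576 and 1445 in VTA KO. Dynlrb2 and Mia of that list fell in SNc WT relative to VTA WT and in SNc KO relative to VTA KO by limma, with adjusted p-values of 0.00943 and 0.0122 in WT and 0.0402 and 0.0445 in KO. The sum for astrocytes and radial glia was 2245 and 2241 in SNc WT against 3650 and 3405 in VTA WT. The part of these cells in the genes that were lower in SNc was not tested. Mrc1 of the list for microglia and macrophages rose in SNc WT over VTA WT, with 6.59 and 6.81 in SNc WT and 5.41 and 5.48 in VTA WT (difference 1.26, limma adjusted p = 0.0263). It passed the signal filter through SNc WT alone, so here too the filter favoured the direction.

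All 4 SNc arrays were above all 4 VTA arrays for Lhx9, Pax6, Meis2, Dlx1, Dlx5 and Nkx2-2, 6 of 53 or 11.3% against 8.63% of all tested probesets. They were below for Lhx4, Hoxb9, Irx2, Pou3f1, Nkx1-1, Pax4, Hoxa9 and Irx6, 8 of 53 or 15.1% against 8.17%. All 4 KO arrays were above all 4 WT arrays for 0 members (1.96% of all) and below for 0 (1.31%). Arrays were thus ordered by region for 14 members and by genotype across both regions for none of the 53. Over all tested probesets, too, orders by region were more frequent than orders by genotype, so that contrast is not particular to the members. SNc WT held the lowest values without overlap for 9 members, Hoxb7, Hoxb3, Nkx2-5, Pax1, Lhx3, Lhx6, Pou3f1, Pax5 and Barhl2 (17%, against 7.05%), and the highest for 0 (against 7.22%). Both VTA KO arrays were above all others for Lhx4, Irx2, Hoxa6, Pou2f2 and Pou2f3 (9.43%, against 5.37%) and below for Nkx6-2 alone (1.89%, against 6.61%). Both VTA WT arrays were above all others for Dlx4, Hoxc9, Six3, Hoxa4, Hoxa9, Irx6, Irx3 and Pou2af1 (15.1%, against 7.65%) and below for Lhx9, Lhx2 and Pax6 (5.66%, against 6.51%). Hoxa9 and Pou2af1 passed the signal filter through VTA WT alone, and Lhx4 through VTA KO alone. The filter thus favoured their place in these counts, and that of Lhx4 and Hoxa9 among the members lower in SNc. All these orders were counted on the deposited scaling alone. A related count, of members with both SNc WT arrays under both VTA WT arrays, was 28 of 53 as deposited. It was 17 under quantile normalization and 15 under median subtraction. The count in the other direction was 9, 12 and 13 in the same order. How far the orders above depend on the scaling was not tested. Such counts describe the members and are no support for a direction.

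Of the remaining families, no gene passed adjustment. Pax2, Pax5 and Pax8, genes of the midbrain-hindbrain boundary and of inhibitory interneurons, were all tested and 0 passed, with list medians between -0.13 and 0.13 in the 4 pairwise comparisons. Pax2 read 6.55 and 6.61 in SNc KO, 6.58 and 6.57 in SNc WT, 6.64 and 6.42 in VTA KO, and 6.79 and 6.59 in VTA WT, which overlapped across genotypes and regions apart from SNc WT and VTA WT. Pax7, a gene of the dorsal midbrain, had group means of 6.32 in SNc KO, 6.48 in SNc WT, 6.55 in VTA KO and 6.45 in VTA WT, and Pax3 was under the minimum in all groups. Of the Iroquois genes, Irx2, Irx3 and Irx6 were tested and Irx1, Irx4 and Irx5 were not. Six3, an anterior forebrain and eye gene, was the only gene of its family tested out of 5 measured coding genes, with means of 5.91, 5.90, 5.92 and 6.08 in SNc KO, SNc WT, VTA KO and VTA WT.

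Onecut1 and Onecut2, known from liver and from motor and midbrain neurons, kept within narrow limits. Onecut1 read 6.33 and 6.33 in SNc KO, 6.35 and 6.26 in SNc WT, 6.27 and 6.24 in VTA KO, and 6.30 and 6.21 in VTA WT. Barhl2, a gene of the diencephalon and retina, had group means of 6.65 in SNc KO, 6.40 in SNc WT, 6.52 in VTA KO and 6.65 in VTA WT, while Barhl1, Gbx1 and Gbx2 were under the minimum in all groups. Pou3f1, known from Schwann cells, had means of 6.57, 6.47, 6.76 and 6.73 in the same order. Of the ventral neural tube Nkx genes, Nkx2-2 and Nkx6-2 were tested and Nkx2-9 and Nkx6-1 were under the minimum in all groups. Pax4 and Pax9, of pancreas and skeleton, stayed at 5.59 to 6.18 in their group means. Over the 5 comparisons, 0 of the 53 tested probesets other than Lhx9 passed adjustment.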

How the data were processed

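The values are log2 expression values as deposited, which the authors made with RMA (RMA Express by the methods); the RMA version and the genome build were not given in the sources used here. LPE in FlexArray, also named in the methods, was not run. Linear models in limma 3.58.1 (R 4.3.3) held 4 group means over the 8 arrays (4 residual and 2.4 prior degrees of freedom). Probesets averaging 60 or more on the linear scale in any group entered the fit (22112, of them 53 members, with 58 members left out), and p-values of each of the 5 comparisons were adjusted by Benjamini-Hochberg over all of them. With 2 arrays a group, their number limits the precision.

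Symbols come from the platform annotation, and all 111 member probesets matched a GRCm38.p6 gene table by gene ID. Genes without a probeset of 1 symbol were not used here. The members, the lists and the rule for named genes were chosen with earlier results of these data known. Named were members that passed adjustment, up to 10 rises and 10 falls per comparison at an unadjusted p under 0.05, the 10 members of highest mean, the highest of each family, and genes of the cell type lists. Other members were named after their values were seen, beside a relative or as under the minimum.

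Alternatives were no signal filter, a minimum of 100, quantile normalization, median subtraction, the compared groups alone, a variance trend, array weights, a replicate block and leaving out each array in turn. The calling was tested on simulated data. Replicate numbers were not treated as pairs in the main fit. Correlations of deviations between groups ran from 0.0005 to 0.0562. They cannot show whether arrays of the same number were handled together.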

Additional observations from a re-analysis of the deposited data

How the results depend on the processing

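The 1 called member, Lhx9 in SNc KO against VTA KO (limma adjusted p = 0.0402), kept its call with a signal minimum of 100 (0.0286), quantile normalization (0.038), median subtraction (0.0485) and a variance trend (0.0318). The count fell to 0 with no filter on signal (0.0778), the arrays of both groups alone (0.299), array weights (0.152) and the replicate block (0.0958), and it ran from 0 to 1 when single arrays were left out, with the call kept only without VTA KO replicate 2 (0.0298). Array weights gave 1 call each in SNc KO against SNc WT (Lhx9, 0.0336) and in SNc WT against VTA WT (Pax6, 0.0497). In the remaining cases these counts stayed at 0, and the replicate block changed no other call. Members at an unadjusted p under 0.05 ran over all alternatives from 3 to 8 in SNc KO against SNc WT, 0 to 5 in VTA KO against VTA WT, 3 to 19 in SNc WT against VTA WT, 4 to 12 in SNc KO against VTA KO and 3 to 8 for the difference of effects. The causes were not tested. With a minimum of 100 the members at or over it numbered 13 in SNc KO, 9 in SNc WT, 5 in VTA KO and 9 in VTA WT, and leaving out single arrays gave 44 to 44, 37 to 41, 44 to 49 and 47 to 49 at a minimum of 60. Of 37 pairs of a named member and a comparison, all kept their direction under the alternatives that gave a value. The pairs were picked at an unadjusted p under 0.05 in these same data. Their direction was therefore largely fixed in advance, and its keeping is no support. Each group rests on 2 arrays, and where 1 is left out the other is assumed to vary like the other groups. Signals near the minimum, where most members lie, limit what these arrays can show.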
